A study of Arabidopsis thaliana with 33 samples.

Results

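The difference in the transcriptional response to increased irradiance between 2 Arabidopsis accessions, Ga-0 (Gabelstein-0) and Ts-1 (Tossa de Mar-1), was measured 1 hr after lights on. For each gene it is the log2 change in Ga-0 from low to high light minus the log2 change in Ts-1, so a positive value is a response that was higher in Ga-0. Its values come from 12 of the 33 arrays of the series, 3 in each of 4 groups, and from all 27826 loci of the deposited table, while the spread between replicates behind each p was estimated over all 33 arrays. The groups were Ga-0 in high light (HL), Ga-0 in low light (LL), Ts-1 in HL and Ts-1 in LL. Both accessions are natural inbred lines without any transgene, and both grew at 100 μmol m−2 s−1 in a 10 hr photoperiod at 20 °C by day and 18 °C at night. On day 25 after sowing the light came on at 550 μmol m−2 s−1 for the HL plants and at 100 μmol m−2 s−1 for the LL plants. The study states that the higher irradiance also came with a raised temperature, so effects of light and of warmth cannot be told apart in these arrays. In a separate experiment the study examined raised temperature alone, by qRT-PCR of a few genes. Each sample pooled 3 whole rosettes of different plants, so fewer cells of a type and less RNA per cell cannot be told apart.

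An abrupt rise in irradiance gives a leaf more energy than photosynthesis can use. Leaves are known to answer with heat-shock proteins, which keep other proteins folded, with protective pigments and antioxidant enzymes, and with signalling through the transcription factor HY5 and the light receptors. Accessions of Arabidopsis are known to differ in how well photosynthesis keeps up under such a change.

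The deposited values keep up to 10 digits of the linear normalized signal but have lost the decimal separator, so that levels are known only up to a power of 10. Levels of different genes were therefore not compared, and each level below is relative to the mean (geometric) of the 3 Ts-1 LL arrays of the same gene. Levels of Ga-0 relative to Ts-1 rest on placing each LL group nearest that of Col-0, another accession of the series. They too are known only up to a power of 10. The responses of the 2 accessions were set as close together as the digits allow, which covers differences of up to 1.66 on the log2 scale (3.16-fold). A difference beyond that limit would be given with the wrong sign and size, and one close below it can be misread in the same way, since the spread between arrays can carry it across. For 226 loci the powers of 10 could be set against the fold-changes that the study tabulated, and for 24 of them these moved both responses together. The difference of responses changed at 0 loci when the tabulated values were not used. No array stood apart, with deviations from the group mean between 0.0994 and 0.129 on the log2 scale (root mean square over loci). Because the levels are lost, it could not be checked whether the markers of leaf, guard cells, phloem, roots and flowers are present at the levels a rosette should show. None of these 16 markers was called in either response or in the difference of responses, which lay between -0.48 and 0.09 on the log2 scale.

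In the limma fit the response differed between Ga-0 and Ts-1 for 57 genes (Benjamini-Hochberg adjusted p below 0.05 and a ratio of fold-changes above 1.4). That is 0.205% of all loci. The response was higher in Ga-0 for 24 genes (0.0863% of loci) and higher in Ts-1 for 33 genes (0.119%). Over all loci, called or not, 50.7% of the differences were positive, which is the share to set beside the counts of signs on lists below. Heat-shock proteins and their cofactors made up 8 of the 24, beside the plastid lipid protein FIB. The 33 held RUP1, RUP2, DREB2A, COR15B and CYP89A9. With the spread estimated from only the 12 arrays of Ga-0 and Ts-1, 16 genes were called, 8 in each direction, and 15 of them were among the 57. At an unadjusted p below 0.05 there were 2356 loci. Calls were sensitive to single arrays, since 21 of the 57 genes passed in each of the 12 fits that left out 1 array and 11 passed in 2 or fewer. The sign of all 57 held in every such fit, but the genes were selected on these same arrays, so this is no independent support. The count fell to 30 without Ts-1 HL replicate 2, to 30 without Ts-1 HL replicate 3 and to 37 without Ts-1 LL replicate 2, against 57 with all arrays. For 46 of the 57 genes the power of 10 is set by the study's tables, and the other 11 take the smallest difference.

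**Figure D1:**
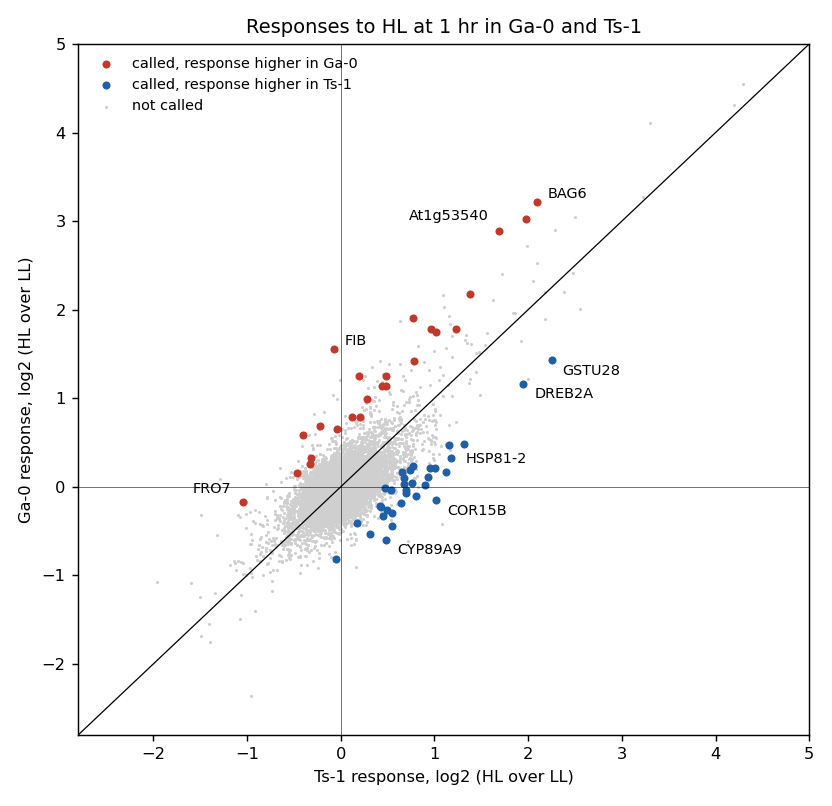
Log2 response to HL at 1 hr in Ga-0 (vertical axis) and in Ts-1 (horizontal axis), 1 point per locus, with the line of equal response. The 24 genes called with a higher response in Ga-0 (red) lie above the line and the 33 called with a higher response in Ts-1 (blue) below it, while most of the 27826 loci (grey) sit near no response in both.

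The responses of the accessions taken singly set the scale. HL arrays were higher than LL arrays for 377 genes in Ga-0 (1.35% of loci) and for 431 in Ts-1 (1.55%), and lower for 249 genes in Ga-0 (0.895%) and for 242 in Ts-1 (0.87%). Of the 982 genes called in either accession, 49 had a called difference. The difference was thus called for few of the genes that responded. The 24 genes with a higher response in Ga-0 were mostly genes up-regulated there. 9 of them were up-regulated in both accessions, 11 in Ga-0 without a call in Ts-1, and 1 was down-regulated in Ts-1 without a call in Ga-0. Of the 33 with a higher response in Ts-1, 22 were up-regulated in Ts-1 without a call in Ga-0, 3 were up-regulated in both, and 2 were down-regulated in Ga-0 without a call in Ts-1. A response without a call can still be one that missed only the fold limit. In the limma fit, examples were CPN60BETA2 in Ts-1 (1.398-fold, adjusted p = 4.6e-05) and RUP1 in Ga-0 (1.38-fold, adjusted p = 0.0052). A single gene over the whole table, CYP89A9, was called in both accessions in opposite directions. Its fold-change in Ts-1, 1.4011, only just passed the limit of 1.4. At4g20820 also fell in Ga-0 and rose in Ts-1, but missed the fold limit in Ga-0 (limma adjusted p = 0.0053). The remaining 3 and 5 genes were called in neither response.

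**Figure D2:**
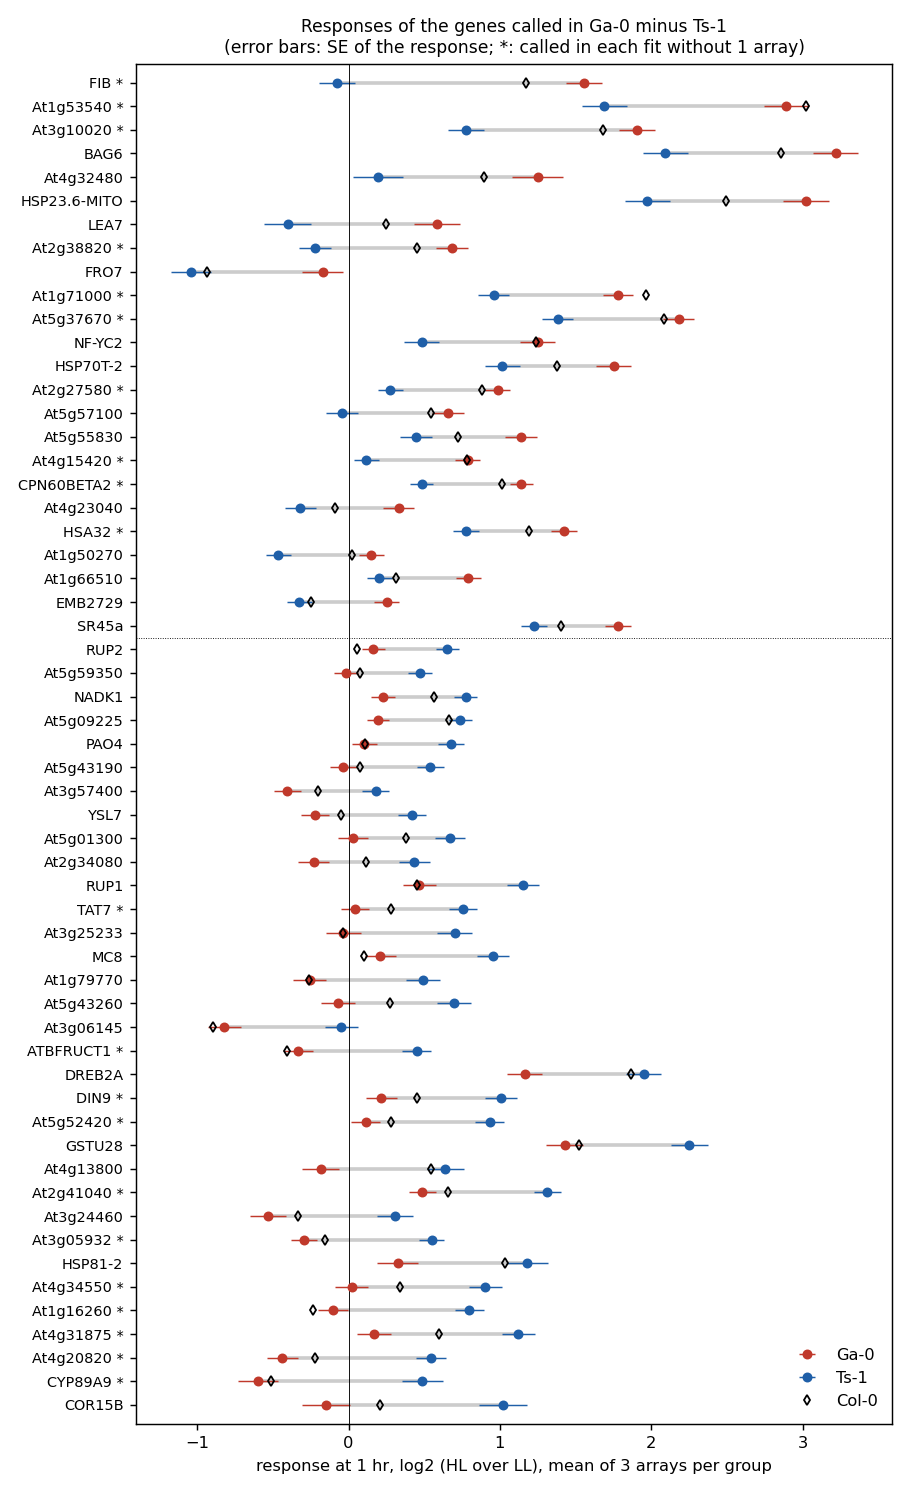
Log2 response at 1 hr of the 57 genes with a called difference, in Ga-0 (red), Ts-1 (blue) and Col-0 (open diamonds), ordered by the difference from FIB (1.63) at the top to COR15B (-1.17) at the bottom. Bars are standard errors of the fitted response (3 arrays per group), the dotted line parts the 24 genes from the 33, and an asterisk marks the 21 genes called in each fit without 1 array.

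FIB (At4g04020), a fibrillin that coats plastoglobules, the lipid droplets of the chloroplast, had the largest difference of all called genes. Its relative levels were 2.14, 2.26 and 2.24 in Ga-0 HL against 0.792, 0.772 and 0.696 in Ga-0 LL. In Ts-1 they were 0.826, 0.919 and 1.12 in HL against 1.08, 1.00 and 0.923 in LL. The Ga-0 HL arrays stood above all 9 others, and the HL and LL arrays of Ts-1 overlapped. The log2 response came to 1.56 in Ga-0 and to -0.08 in Ts-1, a difference of 1.63 (standard error 0.17, adjusted p = 2.3e-06). This value lies just inside the limit of 1.66, beyond which the digits would read as -1.69, and the tabulated fold-changes settle it. Without any 1 array the adjusted p stayed at or below 2.7e-05. FIB was the single gene that passed limma's test against a 1.4-fold difference. The other 4 plastoglobule fibrillins were not called and lay between -0.15 and 0.04. FIB was also up-regulated in Col-0, with a response of 1.175 in the limma fit (adjusted p = 1.4e-08).

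Among the small heat-shock proteins, which hold unfolding proteins until other chaperones can act on them, the HSP20-like chaperone At1g53540 differed most. Its relative levels were 6.48, 9.31 and 9.04 in Ga-0 HL and 1.19, 1.13 and 0.991 in Ga-0 LL. They were 3.57, 3.01 and 3.12 in Ts-1 HL and 0.984, 1.01 and 1.01 in Ts-1 LL. The gene was up-regulated in both accessions with similar LL levels, and the HL arrays of Ga-0 and Ts-1 did not overlap. The difference was 1.2 (standard error 0.21, adjusted p = 0.0053). At5g37670, another HSP20-like gene, had 3.62, 4.18 and 5.18 in Ga-0 HL against 2.85, 2.57 and 2.41 in Ts-1 HL, and its difference was 0.80 (adjusted p = 0.0088). Both calls held in all 12 fits without 1 array. The other 9 cytosolic members were not called. At2g29500, with responses of 4.1 in Ga-0 and 3.30 in Ts-1, had an adjusted p of 0.070, and At1g07400 had 2.0 in Ga-0 and 2.56 in Ts-1 (difference -0.56, adjusted p = 0.41). HSP17.6A, the most strongly up-regulated of them, had 4.55 in Ga-0 and 4.29 in Ts-1. The median difference of the 11 cytosolic members was 0.26, against 0.002 over all loci. Near-identical small heat-shock genes can share signal on an array, so their single values are uncertain.

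HSP23.6-MITO (At4g25200), a small heat-shock protein of mitochondria, had relative levels of 6.35, 9.81 and 9.79 in Ga-0 HL and 0.993, 1.14 and 1.00 in Ga-0 LL. In Ts-1 the levels were 4.75, 3.11 and 4.1 in HL and 0.900, 1.02 and 1.09 in LL. It was up-regulated in both accessions and its HL levels were separated between them. The difference of 1.05 (standard error 0.21, adjusted p = 0.023) passed in 5 of the 12 fits without 1 array, with an adjusted p of up to 0.091 without Ts-1 HL replicate 2. The other 4 organellar members were not called, and all 5 had a positive difference (median 0.31).

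Calls were also found among the larger chaperones. CPN60BETA2 (At3g13470), a subunit of the chloroplast chaperonin that folds Rubisco, had relative levels of 2.17, 2.40 and 2.24 in Ga-0 HL, against 1.05, 1.02 and 1.01 in Ga-0 LL. In Ts-1 it had 1.36, 1.45 and 1.39 in HL, against 1.06, 1.01 and 0.927 in LL. Its HL arrays stood above its LL arrays in both accessions, and the difference of 0.66 (standard error 0.11, adjusted p = 0.0029) held in all 12 fits. In the study's separate qRT-PCR experiment, CPN60BETA2 was not found responsive to increased irradiance. The other 11 members of the HSP100 and chaperonin list were not called, and 11 of the 12 members had a positive difference (median 0.27). Of the 14 HSP70 genes, HSP70T-2 (At2g32120) alone was called, with 2.93, 3.34 and 3.82 in Ga-0 HL against 1.94, 2.22 and 1.92 in Ts-1 HL and LL levels near 1 in both. Its difference was 0.74 (adjusted p = 0.044) and passed in 3 of the 12 fits, with a highest adjusted p of 0.11 without Ts-1 HL replicate 3. The median over the HSP70 genes was 0.07.

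HSP81-2 (At5g56030), a cytosolic HSP90, was the one gene of the heat lists called with a higher response in Ts-1. Its relative levels were 0.577, 0.538 and 0.727 in Ga-0 HL and 0.460, 0.469 and 0.531 in Ga-0 LL. In Ts-1 they were 2.18, 2.45 and 2.18 in HL and 1.18, 0.874 and 0.967 in LL. As placed, all Ga-0 arrays lay below all Ts-1 arrays, also in LL, where the accessions differed by -1.04 (adjusted p = 5.7e-07). The power of 10 behind this level difference is not settled. The difference of responses was -0.86 (standard error 0.19, adjusted p = 0.047) and passed in 2 of the 12 fits, with an adjusted p of up to 0.14 without Ga-0 HL replicate 2. HSP81-2 has near-identical copies in the genome, and of these HSP81-3 had 0.58 in Ga-0 and 0.69 in Ts-1 and was not called in the difference. Of the other 9 members of this list, which includes the HOP cochaperones, none was called, and 8 of all 10 had a positive difference. Hsp89.1, the mitochondrial member, missed the limit with 0.91 in Ga-0, 0.37 in Ts-1 and an adjusted p of 0.051.

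Among the cofactors of heat tolerance, BAG6 (At2g46240), a calmodulin-binding cochaperone, had relative levels of 6.91, 7.5 and 9.63 in Ga-0 HL and 0.831, 0.895 and 0.832 in Ga-0 LL. In Ts-1 it had 4.68, 4.35 and 3.81 in HL and 1.03, 1.12 and 0.868 in LL. It responded by 3.22 in Ga-0 and by 2.09 in Ts-1, and both powers of 10 are those of the tables. The difference of 1.12 (standard error 0.21, adjusted p = 0.011) lost its call only without Ts-1 HL replicate 3 (adjusted p = 0.052). The DnaJ-domain gene At1g71000 and HSA32 (At4g21320), which is known to prolong acquired heat tolerance, had differences of 0.82 (adjusted p = 0.0053) and 0.65 (adjusted p = 0.014). HSA32 had 2.55, 2.90 and 2.67 in Ga-0 HL against 1.72, 1.69 and 1.73 in Ts-1 HL, with LL levels from 0.972 to 1.03 in both accessions. Both calls held in all 12 fits. In this list 3 of 13 members were called, all higher in Ga-0, 12 had a positive difference and the median was 0.49. CDC48B (0.54, adjusted p = 0.24), EGY3 (0.93, adjusted p = 0.097) and MBF1C (-0.15, adjusted p = 0.86) were among those not called. The digits of Fes1A were read as -1.24 in Ga-0 and -1.5 in Ts-1, but as 2.08 and 1.82 when the pair was placed near Col-0, so the direction of its responses is not settled.

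The heat shock transcription factors, which switch on the chaperone genes, gave no call among 21 members. HSFA7A came nearest, with responses of 2.41 in Ga-0 and 1.72 in Ts-1 (difference 0.69, standard error 0.16, adjusted p = 0.064). HSFA2 had 1.90 in Ga-0 and 2.18 in Ts-1, a difference of -0.28 (adjusted p = 0.73). Over these 7 chaperone and factor lists together, 8 of 86 genes (9.30%) were called higher in Ga-0, 1 was called higher in Ts-1 and 77 were not called. The difference was positive for 65 and negative for 21, with a median of 0.19. Over all loci 0.0863% were called higher in Ga-0, 0.119% were called higher in Ts-1 and 50.7% had a positive difference. The lists are rich in responding genes, since 46 of the 86 were up-regulated in Ga-0, against 1.35% of all loci. They were also chosen with earlier results of these data known. A higher share of calls than over all loci is therefore partly built into the lists. Of the 37 genes on these lists that were up-regulated in both accessions, 28 had the larger response in Ga-0 (median difference 0.31). Among the 162 other genes up-regulated in both accessions, 77 had the larger response in Ga-0 and the median difference was -0.02. The genes of protein folding in the endoplasmic reticulum had no call among 13, with a median of 0.18.

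**Figure D3:**
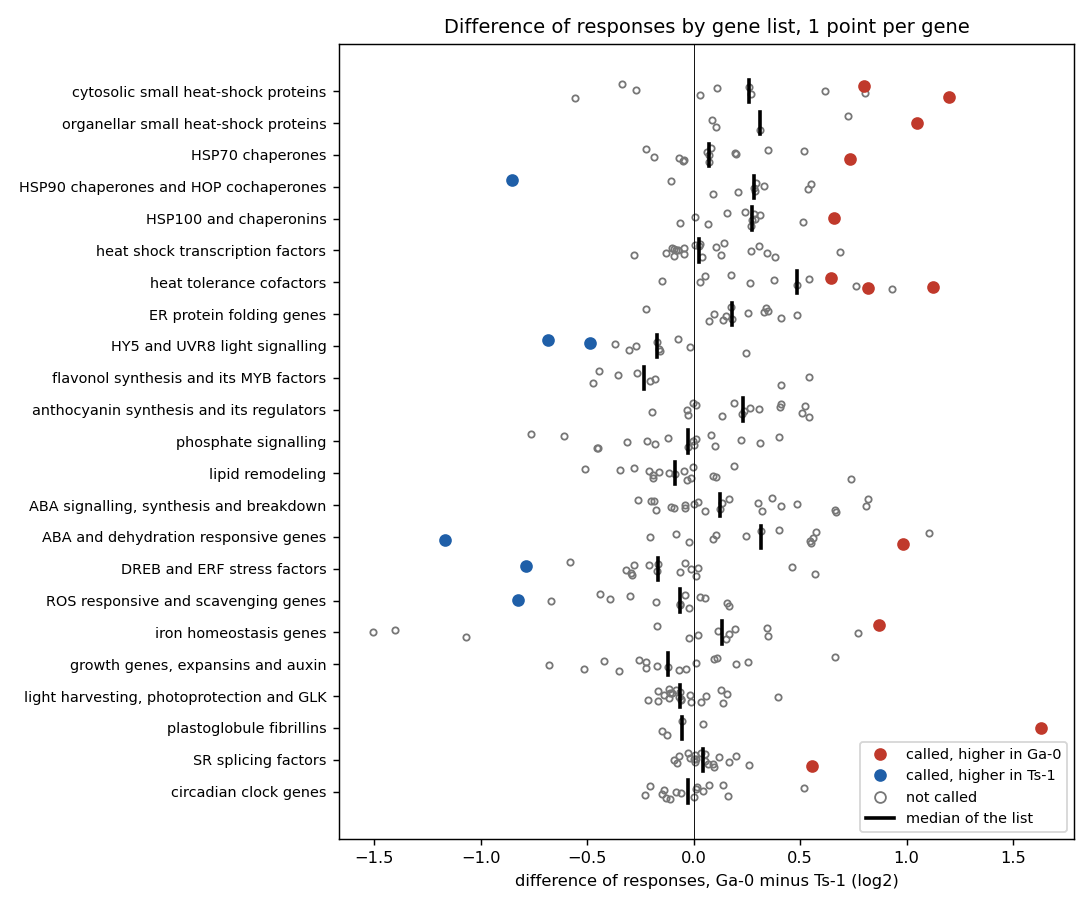
Difference of responses (Ga-0 minus Ts-1, log2) of each gene on 23 lists, 1 point per gene, with filled points for called genes and a bar at the median of each list. The heat-tolerance cofactors have the highest median (0.49), the flavonol genes the lowest (-0.23).

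SR45a (At1g07350), a serine-arginine-rich splicing factor, was up-regulated in both accessions, with 2.82, 2.87 and 3.21 in Ga-0 HL and 2.25, 2.43 and 2.34 in Ts-1 HL. The LL levels were 0.820, 0.963 and 0.809 in Ga-0 and 1.01, 1.03 and 0.957 in Ts-1. The HL arrays of Ga-0 and Ts-1 did not overlap, and their LL arrays did. Its difference of 0.55 (standard error 0.12, adjusted p = 0.044) passed in 2 of the 12 fits, with an adjusted p of up to 0.11 without Ga-0 LL replicate 1. The other 19 splicing factors of the list were not called. SR30 had 1.03 in Ga-0 and 0.77 in Ts-1.

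Several genes outside the heat lists responded more in Ga-0 than in Ts-1. At3g10020, of unknown function, had 3.55, 3.45 and 3.71 in Ga-0 HL against 0.981, 0.891 and 0.988 in Ga-0 LL, and 1.74, 1.67 and 1.73 in Ts-1 HL against 0.822, 1.09 and 1.11 in Ts-1 LL. It was up-regulated in both accessions and by more in Ga-0, with a difference of 1.13 (standard error 0.17, adjusted p = 0.0011). At2g38820 had 1.54, 1.29 and 1.36 in Ga-0 HL against 0.769, 0.863 and 0.954 in Ts-1 HL. Its difference of 0.90 (adjusted p = 0.0029) joined a response of 0.68 in Ga-0 with one of -0.22 in Ts-1. Both held in all 12 fits, as did the zinc-finger gene At2g27580 (0.71) and At4g15420 (0.67). NF-YC2 (At1g56170), a subunit of a CCAAT-box binding factor, had a difference of 0.77 (adjusted p = 0.034, passing in 4 fits, highest 0.096 without Ts-1 LL replicate 1). At4g32480 had 1.06 (adjusted p = 0.0498, passing in 2 fits, highest 0.16 without Ga-0 HL replicate 2).

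FRO7 (At5g49740), the ferric chelate reductase of the chloroplast, fell in Ts-1 and was not called in Ga-0. Its relative levels were 1.07, 1.26 and 1.13 in Ga-0 HL and 1.01, 1.42 and 1.52 in Ga-0 LL, which overlapped. In Ts-1 they were 0.527, 0.470 and 0.461 in HL and 1.01, 0.815 and 1.21 in LL, which did not overlap. The difference of 0.87 (standard error 0.19, adjusted p = 0.041) passed in 5 of the 12 fits, with an adjusted p of up to 0.13 without Ga-0 LL replicate 1. The other 13 iron genes were not called. The transcription factor bHLH39 had the largest value among them, -1.51 (standard error 0.36, adjusted p = 0.069), which the digits also allow as 1.81. Its sign is not settled, nor is that of the ferritin gene FER1 (-1.41, or 1.92), which was not called either (adjusted p = 0.17).

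Genes that respond to dehydration and abscisic acid (ABA) gave 1 call in each direction among 15. LEA7 (At1g52690), a late embryogenesis abundant protein, had 1.90, 0.963 and 1.04 in Ga-0 HL, 0.872, 0.771 and 0.843 in Ga-0 LL, 0.768, 0.751 and 0.750 in Ts-1 HL and 1.09, 0.933 and 0.983 in Ts-1 LL. One of the Ga-0 HL arrays stood far above the other two. The difference of 0.99 (standard error 0.22, adjusted p = 0.045) was 0.68 without that array, Ga-0 HL replicate 1 (adjusted p = 0.071), and was called in 2 of the 12 fits. LTI65 had 0.82 in Ga-0 and -0.29 in Ts-1 and was not called (adjusted p = 0.065). The genes of ABA synthesis and signalling had no call among 23. HAI1, a phosphatase of the ABA pathway, had 1.27 in Ga-0 and 0.45 in Ts-1, and NCED3, an enzyme of ABA synthesis, had 1.2 in Ga-0 and 0.39 in Ts-1 (adjusted p = 0.43 for both differences).

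The other call on that list, COR15B (At2g42530), a cold-regulated protein of the chloroplast, was the largest with a higher response in Ts-1. It had relative levels of 1.41, 1.29 and 1.18 in Ga-0 HL and 1.45, 1.51 and 1.34 in Ga-0 LL, which overlapped. In Ts-1 it had 2.06, 1.93 and 2.1 in HL and 1.09, 0.784 and 1.17 in LL, which did not overlap. The difference was -1.17 (standard error 0.22, adjusted p = 0.014) and lost its call only without Ts-1 LL replicate 2 (adjusted p = 0.056). COR15B has a near-identical neighbour, COR15A, and signal between the copies cannot be told apart. DREB2A (At5g05410), a transcription factor of drought and heat responses, had 2.13, 1.70 and 1.66 in Ga-0 HL and 0.807, 0.858 and 0.770 in Ga-0 LL, against 3.76, 3.84 and 3.99 in Ts-1 HL and 0.971, 1.02 and 1.01 in Ts-1 LL. It was up-regulated in both accessions, by less in Ga-0, and the HL arrays were separated. Its difference of -0.79 (standard error 0.16, adjusted p = 0.030) passed in 2 of the 12 fits, with an adjusted p of up to 0.096 without Ga-0 HL replicate 2. The other 15 DREB and ERF factors were not called. GSTU28 (At1g53680), a glutathione transferase, had 2.70, 2.05 and 2.31 in Ga-0 HL against 4.41, 5.01 and 4.90 in Ts-1 HL. Its difference was -0.82 (adjusted p = 0.035, passing in 4 fits, highest 0.13 without Ga-0 HL replicate 2), and it was the single call among 14 genes of oxidative stress.

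**Figure D4:**
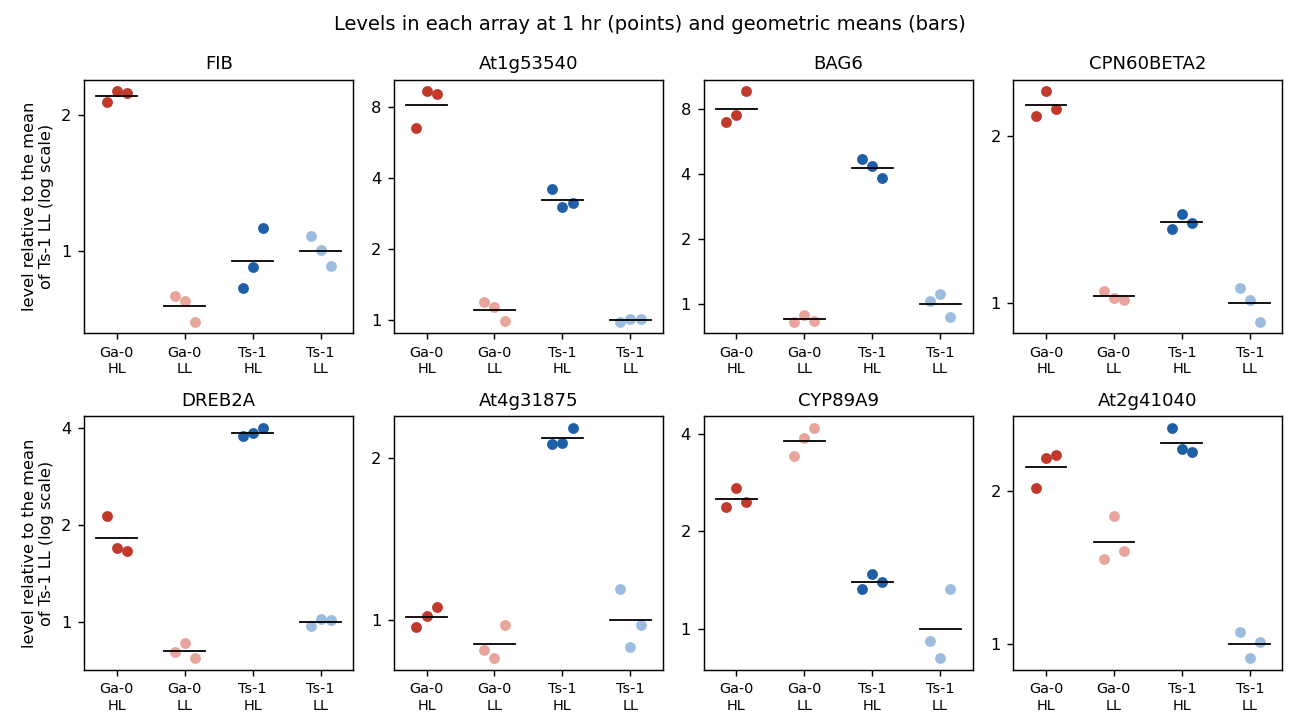
Relative level (log axis, mean of the Ts-1 LL arrays at 1) in each of the 12 arrays for 4 genes with a higher response in Ga-0 (top) and 4 with a higher response in Ts-1 (bottom), with bars at the geometric means of 3 arrays. Of the groups shown, FIB is raised in Ga-0 HL alone (2.14 to 2.26). The heat-shock genes At1g53540, BAG6 and CPN60BETA2 rise in both accessions, and CYP89A9 is lower in HL than in LL in Ga-0 and higher in HL than in LL in Ts-1.

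The UV-B receptor UVR8 and the transcription factor HY5 act together in light signalling, and RUP1 and RUP2 are repressors of UVR8. Both repressors were up-regulated in Ts-1 and not called in Ga-0. RUP1 (At5g52250) had 1.37, 1.33 and 1.26 in Ga-0 HL against 1.04, 0.928 and 0.900 in Ga-0 LL, and 1.95, 2.32 and 2.43 in Ts-1 HL against 0.948, 1.2 and 0.880 in Ts-1 LL. The HL arrays were above the LL arrays in both accessions and furthest in Ts-1. Its difference was -0.68 (standard error 0.15, adjusted p = 0.047). RUP2 (At5g23730) had 1.15, 1.38 and 1.42 in Ga-0 HL and 1.54, 1.64 and 1.53 in Ts-1 HL, with a difference of -0.49 (adjusted p = 0.047), just past the fold limit. The calls passed in 2 and in 3 of the 12 fits, with adjusted p values of up to 0.14 for RUP1 (without Ts-1 HL replicate 3) and for RUP2 (without Ga-0 HL replicate 1). Of the 11 genes on this list 10 had a negative difference (median -0.17). HY5 itself had 0.39 in Ga-0 and 0.76 in Ts-1 and its homologue HYH had 0.28 and 0.58, with differences that did not pass (adjusted p = 0.41 and 0.49). The 8 flavonol genes had no call, and their nearest was F3H, an early enzyme of the pathway (-0.47, adjusted p = 0.054). The largest absolute difference among them was positive (TT7, 0.54). The 16 anthocyanin genes had no call and a positive median (0.23).

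Among the rest of the 33, CYP89A9 (At3g03470), a cytochrome P450 that acts on chlorophyll catabolites, had 2.37, 2.72 and 2.47 in Ga-0 HL and 3.43, 3.88 and 4.17 in Ga-0 LL. In Ts-1 it had 1.33, 1.48 and 1.4 in HL and 0.923, 0.815 and 1.33 in LL. It was lower in HL in Ga-0 and higher in HL in Ts-1, where the HL and LL arrays overlapped by 1 array at 1.33. The difference was -1.09 (standard error 0.19, adjusted p = 0.0054) and held in all 12 fits. The cell wall invertase ATBFRUCT1 (-0.78, adjusted p = 0.0054), the dark-inducible DIN9 (-0.79, adjusted p = 0.0097) and the tyrosine aminotransferase TAT7 (-0.71, adjusted p = 0.0088) were also called in all 12 fits. ATBFRUCT1 had 0.769, 0.743 and 0.681 in Ga-0 HL against 1.26, 1.39 and 1.46 in Ts-1 HL, and TAT7 had 0.834, 0.850 and 0.795 in Ga-0 HL against 1.66, 1.70 and 1.72 in Ts-1 HL. None of these HL groups overlapped. The metacaspase MC8 (-0.74), the polyamine oxidase PAO4 (-0.57), the NAD kinase NADK1 (-0.54) and the metal transporter YSL7 (-0.64) were called with all arrays and lost the call in at least 1 of the 12 fits. These 4 genes, TAT7, DIN9 and ATBFRUCT1 fall outside the rule for named genes and were chosen after their values were seen, for their known functions. The same holds for At2g27580, At4g15420, At1g50270, At4g23040, HSP17.6A, HSP81-3 and Fes1A, which were singled out for their values, their strong response or a near-identical copy.

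The remaining genes high in this direction have little annotation. At4g31875 had 0.971, 1.02 and 1.06 in Ga-0 HL and 2.13, 2.13 and 2.28 in Ts-1 HL, with all 6 LL arrays between 0.851 and 1.14. It was called in Ts-1 and not in Ga-0, and the difference was -0.95 (standard error 0.16, adjusted p = 0.0029). At4g34550 (-0.88, adjusted p = 0.0054) and At1g16260, a wall-associated kinase family member (-0.90, adjusted p = 0.0015), had the same pattern, with responses of 0.90 and 0.80 in Ts-1. In Col-0, At4g31875 was called up-regulated (0.60, adjusted p = 0.00037), and At4g34550 and At1g16260 were not called. At3g05932, annotated as a potential natural antisense gene, had -0.84 (adjusted p = 0.00083). The berberine-type oxidase At4g20820 had 1.62, 1.34 and 1.33 in Ga-0 HL against 1.83, 2.08 and 1.88 in Ga-0 LL, and 1.27, 1.68 and 1.46 in Ts-1 HL against 0.983, 0.969 and 1.05 in Ts-1 LL. It was called up-regulated in Ts-1, while in Ga-0 the response of -0.44 (limma adjusted p = 0.0053) missed the fold limit alone. Its levels in the accessions overlapped in HL and not in LL. Its difference was -0.98 (adjusted p = 0.00097), and that of the methyltransferase-like At2g41040 was -0.83 (adjusted p = 0.0015). These 6 calls held in all 12 fits. At3g24460 (-0.84) passed in 7 fits, with a highest adjusted p of 0.087 without Ts-1 HL replicate 1, and At4g13800 (-0.82) in 5 fits, with 0.11 without Ga-0 LL replicate 3.

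Further lists with no call were phosphate signalling (17 genes, median -0.03), lipid remodeling (17 genes, median -0.09), growth genes with expansins and auxin (17 genes, median -0.12), light harvesting, photoprotection and GLK (21 genes, median -0.07) and the circadian clock (16 genes, median -0.03). In lipid remodeling 13 of the 17 genes had a negative difference, but the largest absolute difference was positive (LTP2, 0.74). The galactolipid synthase MGD2 had 0.24 in Ga-0 and 0.75 in Ts-1 (adjusted p = 0.24), and the phosphodiesterase SRG3 had 1.18 and 1.37 (adjusted p = 0.88). The phosphate sensor SPX1 had 0.37 in Ga-0 and 0.98 in Ts-1 (difference -0.61, adjusted p = 0.44), and EXPA8 had -0.92 in Ga-0 and -0.24 in Ts-1 (adjusted p = 0.064). RVE1 was down-regulated in both accessions, at -1.08 in Ga-0 and -1.60 in Ts-1 (adjusted p = 0.17). GLK2 at -0.78 and -0.91 and CRY1 at -0.53 and -0.51 responded alike in direction, with differences of 0.13 (standard error 0.09) and -0.02 (standard error 0.14).

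The difference of responses can arise in HL or in LL. With the levels as placed, Ga-0 and Ts-1 differed in HL at 1669 loci (6.0%) and in LL at 1514 loci (5.44%). Of the 57 genes, 37 differed between the accessions in HL and not in LL, 6 in LL and not in HL, 4 in both and 10 in neither. All 19 HL differences among the 24 genes with a higher response in Ga-0 were higher in Ga-0, and 2 of these 24 genes differed in LL, At1g50270 and At4g23040, both lower in Ga-0. Among the 33, 21 were lower in Ga-0 than in Ts-1 in HL, and 8 differed in LL, 6 of them higher in Ga-0. As placed, CYP89A9 differed most in LL, by 1.93, and HSP81-2 most in HL, by -1.90. Level differences between the accessions are known only up to a power of 10 (3.32 on the log2 scale), since each LL group was placed nearest Col-0 LL on its own. The digits do not settle their sign and size. The HL values share arrays with the difference of responses, so their direction is partly fixed by the choice of the 57 genes. Probes were designed on the Col-0 genome, and whether they match Ga-0 and Ts-1 equally well was not tested.

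**Figure D5:**
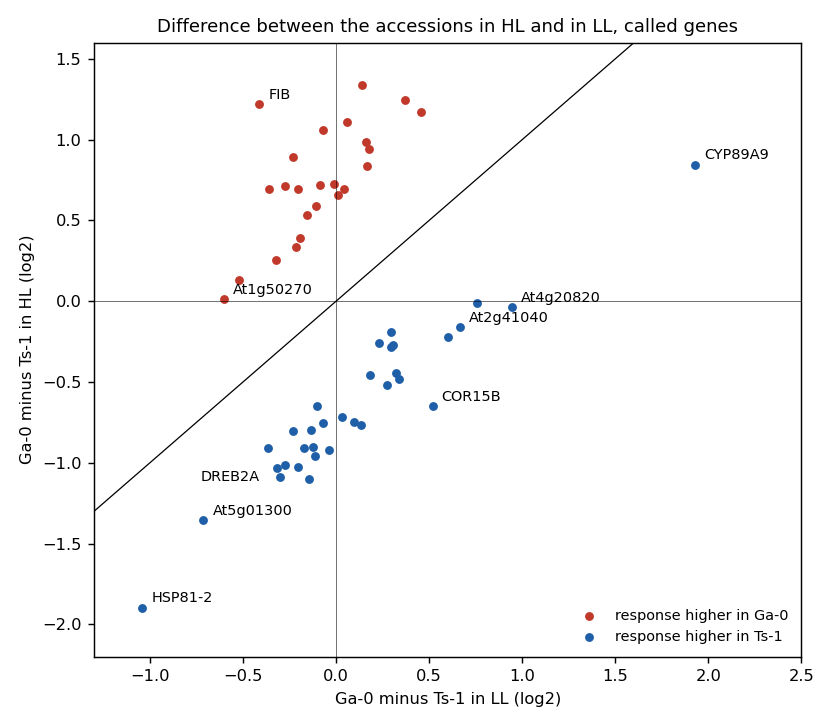
Difference between Ga-0 and Ts-1 in HL (vertical axis) and in LL (horizontal axis), log2, for the 57 called genes, with the line of equal difference. Genes with a higher response in Ga-0 (red) spread upward at small LL differences, while CYP89A9 (1.93 in LL) and HSP81-2 (-1.04 in LL) stand apart on the horizontal axis.

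Col-0 plants sampled at the same time-point give another response, measured on other arrays. Its response lay between those of Ga-0 and Ts-1 for 48 of the 57 genes. It was closer to that of Ga-0 for 42 genes and closer to that of Ts-1 for 15. In the 24 genes the median response was 1.19 in Ga-0, 0.36 in Ts-1 and 0.95 in Col-0, and in the 33 genes it was -0.02 in Ga-0, 0.69 in Ts-1 and 0.11 in Col-0. Exceptions closer to Ts-1 included DREB2A (1.87 in Col-0), HSP81-2 (1.04) and FRO7 (-0.94). These counts describe genes selected on the responses of Ga-0 and Ts-1 and carry no test.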

How the data were processed

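The authors hybridized RNA of pooled rosettes to Affymetrix AraGene arrays, extracted signals with Expression Console, summarised probes by locus and normalized by RMA (labels and methods). The deposited values are digits of linear RMA signal whose decimal separator was lost (1 of 918258 keeps it). Here, arrays of a group were placed at the nearest power of 10, LL groups nearest Col-0 LL at 1 hr, and the responses of Ga-0 and Ts-1 nearest each other and at the smallest summed size. Powers of 10 of 452 tabulated fold-changes followed the study's tables, of which only these powers were used. Log2 values were fitted with limma 3.58.1 (R 4.3.3) over all 33 arrays, 1 mean per group (22 residual and 8.36 prior degrees of freedom), and p adjusted by Benjamini-Hochberg over all 27826 loci. The number of arrays limits precision: the median standard error of a difference was 0.13 on the log2 scale. Dim loci could not be filtered. Placing and fit were also run on simulated data. Mean responses there were capped below those of the strongest heat-shock genes, so the simulation does not cover the placing of such genes. Genes named were the 12 largest called differences each way, called genes on the 29 lists, genes the study's text names and, as examples, up to 4 uncalled members of a list by the largest absolute difference; the report says which other names were chosen after their values were seen. Members and lists were chosen with earlier results of these data known. RefSeq names (TAIR10.1) matched 27241 loci. Promoter motifs were not analysed here. Python 3.11.15 was used for placing, with each alternative of the closing section.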

Additional observations from a re-analysis of the deposited data

Results flagged for a closer look

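The response to HL differed between the accessions by limma's test of the difference itself for 31 named genes, given as log2 differences, Ga-0 over Ts-1. Among heat-shock genes and their cofactors these were At1g53540 (1.2), BAG6 (1.12), HSP23.6-MITO (1.05), At1g71000 (0.82), At5g37670 (0.80), HSP70T-2 (0.74), CPN60BETA2 (0.66), HSA32 (0.65) and HSP81-2 (-0.86). In the other named genes with a higher response in Ga-0, the values were 1.63 for FIB, 1.13 for At3g10020, 1.06 for At4g32480, 0.99 for LEA7, 0.90 for At2g38820, 0.87 for FRO7, 0.77 for NF-YC2 and 0.55 for SR45a. In those with a higher response in Ts-1, they were -1.17 for COR15B, -1.09 for CYP89A9, -0.98 for At4g20820, -0.95 for At4g31875, -0.90 for At1g16260, -0.88 for At4g34550, -0.84 for At3g05932, -0.84 for At3g24460, -0.83 for At2g41040, -0.82 for At4g13800, -0.82 for GSTU28, -0.79 for DREB2A, -0.68 for RUP1 and -0.49 for RUP2. Groups of 3 arrays were too small to look for single outlying arrays by a fixed limit.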

How the results depend on the processing

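Counts are given for the difference of responses (57 genes, 24 higher in Ga-0 and 33 higher in Ts-1) and for the responses in Ga-0 (626 genes) and Ts-1 (673 genes). With only the 12 arrays of Ga-0 and Ts-1 in the fit, 16 genes were called (8 and 8), of which 15 were among the 57. Benjamini-Yekutieli adjustment called 11 (5 and 6), and unadjusted p 326 (164 and 162). The test against a 1.4-fold change called 1 gene (1 and 0), with 101 genes in Ga-0 and 117 in Ts-1. A 2-fold limit called 8 (6 and 2), with 107 in Ga-0 and 101 in Ts-1, and limits of 1.4 on the log2 scale 1 (1 and 0), with 55 and 37. Without a fold limit the 57 stayed, with 1559 genes in Ga-0 and 1792 in Ts-1. Leaving out the tabulated loci left 0 calls in limma (0 and 0; lowest adjusted p = 0.081, 2188 loci at an unadjusted p below 0.05), since the tables hold 46 of the 57 and the rest then faced another adjustment. Placing each response alone added 13 genes to the 57 (70 in all), and placing the pair near Col-0, an alternative chosen after seeing the data, left the 57 in place. With 1 array left out, between 30 and 62 genes were called, 13 to 32 higher in Ga-0 and 16 to 30 higher in Ts-1, with 570 to 687 in Ga-0 and 642 to 733 in Ts-1. No named gene that was called changed sign under any alternative run for it. The alternatives reuse the arrays on which these genes were selected.

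Same-numbered replicates correlated between -0.18 and 0.25 in their deviations (4 of 18 pairs above 0.1). Pairs of HL and LL within an accession lay between 0.018 and 0.25, and pairs across accessions between -0.18 and 0.17. With 3 arrays per group, such weak values cannot decide whether the numbers pair the samples. With the replicate number as a block 51 genes were called (22 and 29), 50 of them among the 57.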
